A study of Mus musculus with 3 samples.

Results

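The mitochondrial ribosomal protein genes are taken here as the protein-coding mouse genes whose RefSeq symbol begins with Mrpl or Mrps followed by a digit. The rule found 78 genes among 21887 protein-coding genes, 49 with a large subunit symbol (Mrpl) and 29 with a small subunit symbol (Mrps). They lie on 17 chromosomes, with 11 on chromosome 11 and 8 on chromosome 17.

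Chromatin occupancy of Flag-tagged Bcl11a was mapped by CUT&Tag, in which an antibody brings a transposase to a chromatin protein so that nearby DNA is tagged for sequencing. The 3 libraries form 1 group of sorted bone marrow LSK cells (lineage-negative, Sca-1-positive, Kit-positive stem and early progenitor cells). Per the design text the mice were knock-ins whose Bcl11a, a zinc finger protein that represses transcription, carries 3xFlag at its N-terminus, while the genotype label reads wildtype. No source used here gives the age or strain of the mice, a treatment, the antibody, or whether the libraries came from separate animals, so an SD below measures only the spread between these libraries. Libraries without the tag, the antibody or either were not analysed here, and enrichment at open chromatin without the tagged protein cannot be told apart from occupancy.

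Mitochondria keep their own ribosome, which translates the few proteins encoded by mitochondrial DNA, all of them parts of the respiratory chain or of ATP synthase. Its ribosomal RNAs come from the mitochondrial genome, but its proteins are encoded in the nucleus, made in the cytosol and imported. Some descend from bacterial ribosomal proteins and others were added in mitochondria. Translation in mitochondria is needed for oxidative phosphorylation, on which blood stem cells rely as they leave quiescence. Bcl11a is best known for silencing fetal globin genes through the motif TGACCA.

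The peak lists held 36466 to 43469 peaks a library. Peaks that overlapped in all 3 libraries were joined into reproducible regions, and a gene was called occupied when such a region came within 1 kb of an outer end of its annotation. The fold enrichment of a peak is the authors' own value from the peak caller, the summit pileup over the local background. At the ends of the LSK marker genes Kit, Cd34, Flt3 and Mecom a reproducible region was found (4 of 6 markers; Ly6a and Slamf1 had none), against 3 of 16 markers of other marrow cells (Cd79a, Epor and Mpo). Of all protein-coding genes, 45.2% had one.

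Promoter sequences of 10 members are printed because later results turn on them. They are RefSeq sequences of GRCm38.p6, the assembly behind mm10, read 5′ to 3′ on the strand of the named gene. Each ends at the base before the gene's outer start and reaches back to the next coding gene or, at most, 250 bases. Capitals mark the letters of the searched motifs on either strand: GGGCGG (SP and KLF factors), CCGGAAG (ETS family), GCGCANGCG (NRF1), CCAAT (NF-Y), TGACGTCA (CREB) and TGACCA (Bcl11a).

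The first 5 are the whole interval between a member and a coding gene on the other strand. Mrps18b had the highest fold enrichment of the members and faces Ppp1r10 (chr17:35916441-35916511, minus strand). Mrps11 faces another member, Mrpl46 (chr7:78783090-78783130, plus strand). Mrpl51 faces Ncapd2 (chr6:125192101-125192199, plus strand). Mrps12 faces Sars2 (chr7:28741822-28741956, minus strand). Mrpl49 had the lowest fold enrichment and faces Fau (chr19:6057756-6057946, minus strand).
Mrps18b: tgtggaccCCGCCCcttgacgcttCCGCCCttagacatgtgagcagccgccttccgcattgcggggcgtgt
Mrps11: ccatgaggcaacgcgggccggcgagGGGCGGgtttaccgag
Mrpl51: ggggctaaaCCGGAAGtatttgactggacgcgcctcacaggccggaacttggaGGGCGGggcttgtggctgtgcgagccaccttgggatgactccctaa
Mrps12: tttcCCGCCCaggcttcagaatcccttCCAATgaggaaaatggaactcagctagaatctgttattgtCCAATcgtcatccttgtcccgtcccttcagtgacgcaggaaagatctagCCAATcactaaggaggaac
Mrpl49: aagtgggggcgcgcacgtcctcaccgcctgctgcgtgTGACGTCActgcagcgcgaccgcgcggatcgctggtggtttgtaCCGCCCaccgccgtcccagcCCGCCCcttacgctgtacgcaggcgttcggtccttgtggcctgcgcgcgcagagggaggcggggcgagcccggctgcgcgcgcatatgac

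Next come 3 occupied members with no coding gene at the same region. Mrps26 (chr2:130563507-130563756, plus strand) and Mrpl17 (chr7:105811088-105811337, minus strand) were among the 10 strongest members. Mrps15 (chr4:126046678-126046927, plus strand) was among the 5 weakest and holds the Bcl11a motif.
Mrps26: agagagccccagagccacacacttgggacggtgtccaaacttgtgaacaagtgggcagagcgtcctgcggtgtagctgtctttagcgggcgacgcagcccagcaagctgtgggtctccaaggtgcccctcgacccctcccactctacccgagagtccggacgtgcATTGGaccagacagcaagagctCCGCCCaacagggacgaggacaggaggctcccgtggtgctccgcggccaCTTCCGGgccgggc
Mrpl17: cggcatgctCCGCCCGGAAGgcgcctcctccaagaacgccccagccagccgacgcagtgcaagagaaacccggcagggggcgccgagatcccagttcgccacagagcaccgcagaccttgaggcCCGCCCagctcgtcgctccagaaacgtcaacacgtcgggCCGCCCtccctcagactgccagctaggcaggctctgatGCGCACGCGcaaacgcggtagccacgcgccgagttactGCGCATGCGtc
Mrps15: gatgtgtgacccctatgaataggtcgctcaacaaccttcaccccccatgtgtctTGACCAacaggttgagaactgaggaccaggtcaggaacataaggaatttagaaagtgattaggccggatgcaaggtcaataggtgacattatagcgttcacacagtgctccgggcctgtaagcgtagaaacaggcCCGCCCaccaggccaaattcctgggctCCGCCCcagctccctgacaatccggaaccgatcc

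The last pair belongs to members with no peak at either end in any library, Mrps22 (chr9:98601680-98601929, minus strand) and Mrps25 (chr6:92184024-92184273, minus strand). In Mrps22 an ETS letter match lies close to the start although no peak was called there.
Mrps22: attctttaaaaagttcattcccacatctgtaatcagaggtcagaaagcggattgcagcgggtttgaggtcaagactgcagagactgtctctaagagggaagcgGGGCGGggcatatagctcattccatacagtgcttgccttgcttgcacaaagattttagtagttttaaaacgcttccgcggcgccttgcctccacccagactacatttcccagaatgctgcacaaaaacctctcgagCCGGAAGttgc
Mrps25: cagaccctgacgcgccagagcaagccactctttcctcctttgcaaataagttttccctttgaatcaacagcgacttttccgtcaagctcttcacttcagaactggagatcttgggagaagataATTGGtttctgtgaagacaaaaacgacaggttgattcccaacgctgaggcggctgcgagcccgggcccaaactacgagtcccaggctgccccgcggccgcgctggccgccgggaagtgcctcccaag

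Most mitochondrial ribosomal protein genes were occupied. A reproducible region lay within 1 kb of an end of 62 of the 78 members (79.5%), against 45.2% of all protein-coding genes. The remaining members divided into 11 with peaks that did not join across the 3 libraries and 5 with no peak at either end. Genes with no peak at all made up 40.8% of the protein-coding set. With each library taken alone, 64 members (82.1%) had a peak in library 1, 73 (93.6%) in library 2 and 68 (87.2%) in library 3. The same shares of all protein-coding genes were 50%, 52.5% and 53.9%, so library 2 covered the most members although library 3 covered the most genes overall. The members' share was the higher in 3 of 3 libraries, by 35.5 ± 4.9 percentage points (SD, n = 3). There was no second group to compare, and 3 libraries allow no exact two-sided sign-flip p below 0.25, so values are given beside the same value of all genes with no p.

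Both subunits were occupied above the share of all genes. Of the large subunit members 41 of 49 were occupied (83.7%), and of the small subunit members 21 of 29 (72.4%). For joined regions this order rests on library 1. Without it 42 large subunit members (85.7%) and 25 small subunit members (86.2%) were occupied. Library 1 had a peak at 43 large and 21 small subunit members (87.8% and 72.4%). Library 2 had one at 47 and 26 (95.9% and 89.7%), and library 3 at 43 and 25 (87.8% and 86.2%). With each library taken alone the large subunit's share was thus the higher, by the least in library 3.

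Symbols do not all name the subunit that a protein sits in. Mrps18a and Mrps30 encode proteins of the large subunit in solved structures, and Mrps36 is now counted as a subunit of the 2-oxoglutarate dehydrogenase complex. With the subunit taken from structure, 42 of 51 large subunit genes (82.4%) and 19 of 26 small subunit genes (73.1%) were occupied. Among large subunit genes, those classed as homologues of bacterial ribosomal proteins were occupied in 22 of 30 cases (73.3%). Those classed as specific to the mitochondrial ribosome were occupied in 20 of 21 (95.2%). In the small subunit the order was the other way, with 13 of 16 (81.2%) and 6 of 10 (60%).

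**Figure D1:**
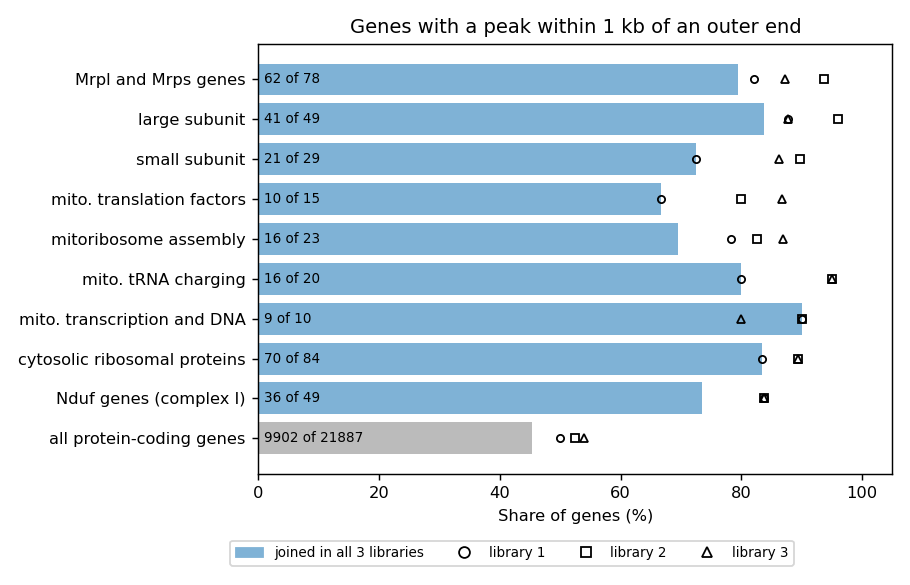
Share of genes (%, horizontal axis) with a peak within 1 kb of an outer end, for the mitochondrial ribosomal protein genes, their subunits, lists of functionally related genes and all protein-coding genes. Bars show genes with a region joined across all 3 libraries, with the counts printed inside, and open symbols show each library alone; the bar of the members stands at 79.5% and that of all genes at 45.2%.

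Occupied members had a fold enrichment close to that of all occupied genes and a lower pileup. Over the 62 members the median fold enrichment was 7.51 in library 1, 8.28 in library 2 and 7.13 in library 3, a mean of 7.64 ± 0.58 (SD, n = 3). Over all 9902 occupied protein-coding genes it was 7.39, 7.66 and 7.15, a mean of 7.40 ± 0.26 (SD, n = 3). Within libraries the members' median minus that of all occupied genes was 0.12, 0.62 and -0.02. Of the 62 members, 32 stood above the median of all occupied genes (by construction 50% of those genes do) and 6 stood in the top 10% (9.68% of the members, against 10% of occupied genes). The summit pileup over the library background, a second measure of height recovered from the deposited values, had medians of 18.3, 20.6 and 17.99 for the members and 22.5, 22.7 and 19.5 for all occupied genes. The members were lower in each of the 3 libraries.

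The subunits did not separate by fold enrichment. The median of the 41 large subunit members was 7.59, 7.69 and 7.13 in libraries 1, 2 and 3, and that of the 21 small subunit members was 7.25, 8.85 and 7.13. The large subunit was the higher in library 1, the small subunit in library 2, and both were at the same value in library 3. Their means were 7.47 ± 0.30 and 7.74 ± 0.96 (SD, n = 3). By pileup over background the large subunit was the higher in each library, at 18.7, 21.3 and 17.99 against 14.99, 19.9 and 17.5. Symbols of the small subunit were 4 of the 6 members in the top 10%. With Mrps36 set aside and the subunit taken from structure, the counts were 3 small and 2 large subunit genes.

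Member means spanned 3.55-fold from the weakest to the strongest. The highest was at Mrps18b, a small subunit protein gene (gene ID 66973, chr17:35910380-35916440). Its fold enrichment was 13.0, 15.2 and 14.9 in libraries 1, 2 and 3 (mean 14.36 ± 1.18, SD, n = 3), and its summit pileup was 80, 133 and 168 fragments. The region covered 921 bp over the start (chr17:35916122-35917042). Library 1 was the lowest of the 3 for both measures.

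Mrps28 followed (gene ID 66230, chr3:8802146-8923857), a small subunit gene of bacterial ancestry, with 14.3, 13.1 and 13.2 (mean 13.54 ± 0.66, SD, n = 3). Mrpl55, the strongest large subunit member (gene ID 67212, chr11:59202486-59206138), had 13.5, 13.3 and 13.7 (mean 13.54 ± 0.20). Mrps26 (gene ID 99045, chr2:130563757-130565394), added to the ribosome in mitochondria, had 12.7, 13.3 and 13.4 (mean 13.16 ± 0.39). The ranges over libraries of these 3 genes and of Mrps18b overlapped.

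Mrps36, the gene that is no longer counted with the ribosome, ranked 5 with 11.1, 12.99 and 13.3 (mean 12.49 ± 1.18, SD, n = 3). Mrpl18, which encodes the homologue of a bacterial large subunit protein, had 12.6, 11.03 and 12.3 (mean 11.95 ± 0.81). Mrpl41 had 12.9, 10.5 and 11.2 (mean 11.53 ± 1.27). It also had the highest pileup of the members, 163, 195 and 262 fragments, over a region of 1539 bp. Relative to the library background this was 142 ± 9 (SD, n = 3), against 85.3 ± 9.9 at Mrps18b, the next. Mrpl45, Mrpl17 and Mrps14 completed the 10 strongest, at 11.39 ± 1.28, 11.19 ± 0.38 and 10.65 ± 1.23.

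At the lower end, Mrpl49 had 4.997, 3.61 and 3.51 (mean 4.04 ± 0.83, SD, n = 3). Its pileups of 20, 19 and 24 fragments were not the lowest of the members, and its rank by pileup over background was 39 of 62. Mrpl15 had 5.32, 4.57 and 4.41 (mean 4.77 ± 0.48), with a stronger region of 8.67 inside the gene, more than 1 kb from both ends. Mrpl13 (mean 4.84 ± 0.53), Mrps15 (4.96 ± 1.31) and Mrpl53 (5.16 ± 0.47) were the others of the 5 weakest. Mrps15 was higher in library 1 (6.46) than in libraries 2 and 3 (4.08 and 4.34).

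Fold enrichment and pileup ranked some members apart. Mrpl34, which encodes the homologue of another bacterial large subunit protein, ranked 4 by pileup over background (53.9 ± 18.3, SD, n = 3) and 44 by fold enrichment (8.41, 5.84 and 5.38). Its pileups were 79, 70 and 74 fragments. Mrps28 ranked 2 by fold enrichment and 11 by pileup, with 41, 50 and 63 fragments.

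Agreement between libraries was moderate at the level of single members. The coefficient of variation of a member had a median of 13.4% and ran from 1.18% to 48.9%. The largest was that of Mrpl44, with 5.32, 5.82 and 12.1 in libraries 1, 2 and 3, so its mean of 7.75 rests on library 3. Mrps12 had 3.85, 8.73 and 6.10 (39.3%), and Mrps21, whose bacterial counterpart is a small ribosomal protein, had 6.83, 8.31 and 4.404 (30.3%). Across the 62 members the log2 fold enrichment of pairs of libraries correlated at Pearson's r of 0.69, 0.66 and 0.76 (Spearman's rho 0.69, 0.62 and 0.75), as a description over genes that share the libraries. In low peaks the values come in steps of whole fragments. Mrps31 and Mrpl50, on different chromosomes, both had 5.32, 6.65 and 7.13 from pileups of 10, 15 and 20 fragments.

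**Figure D2:**
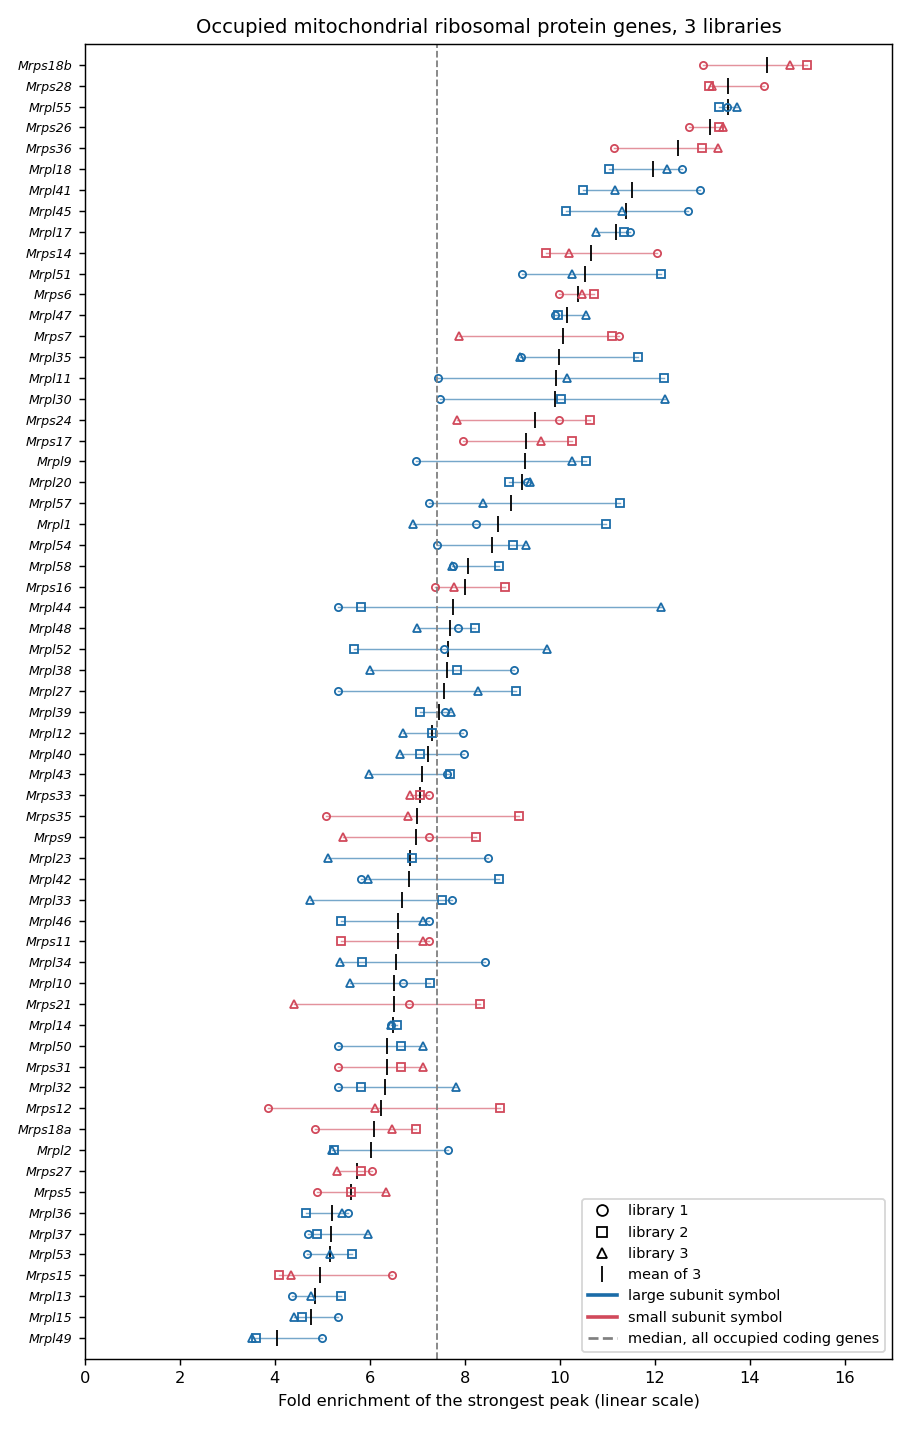
Fold enrichment (linear, horizontal axis) of the strongest region at each of the 62 occupied members, with 1 symbol a library, a line over their range and a tick at their mean; colour gives the subunit of the symbol. The dashed line is the median of all occupied protein-coding genes, and 32 of the 62 means lie to its right, from Mrps18b at the top (14.36) to Mrpl49 at the bottom (4.04).

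Regions lay over the gene starts. The promoter table gives a strand and start site for 69 of the 78 members, and 58 of those starts (84.1%) lay inside a reproducible region, against 42.8% of all genes of the table. The summit nearest to such a start stood at a median of 16 bp upstream (18 bp for all genes), with 51 of 58 within 250 bp (87.9%, against 83.7%). Of the 56 occupied members with a known strand, 49 had a region at the start only (87.5%, against 86.8%), 6 at both ends (10.7%, against 8.91%) and 1, Mrpl36, at the finish only (1.79%, against 4.32%). Its region lay 846 bp inside the finish, with the summit 4 bp from the start site of the promoter table. The strongest regions of the members had a median width of 705 bp, against 881 bp for those of all occupied coding genes.

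A region at both ends was found for 7 occupied members (11.3%, against 8.74% of occupied genes). These were Mrps18b, Mrpl58, Mrpl38, Mrpl12, Mrpl34, Mrpl2 and Mrpl53. Mrpl53 is 825 bp long and Mrpl34 828 bp, and at each a single region lay within 1 kb of both ends. Mrpl58 encodes a peptidyl-tRNA hydrolase built into the large subunit. Its region of higher mean was at the finish (7.74, 8.73 and 7.74), where 3 tRNA genes also lie. In library 3 its start region was the higher, at 8.07. At Mrpl2, a core large subunit gene, the region of higher mean was also at the finish (7.65, 5.24 and 5.21). It lay at the start of Cul7, a ubiquitin ligase scaffold. That order rests on library 1, since the region at the start of Mrpl2 had 4.73, 6.38 and 6.05 and was the higher in libraries 2 and 3.

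Regions shared with a neighbouring gene were frequent. The strongest region of 32 of the 62 occupied members (51.6%) also lay within 1 kb of an end of another protein-coding gene, against 29.4% of occupied genes. Each of the 32 had exactly 1 such neighbour. Counting genes of any type the share was 59.7% (37 members), against 41.3%. By subunit symbol, 24 of 41 large subunit members (58.5%) and 8 of 21 small subunit members (38.1%) shared a region. Since Mrpl46 and Mrps11 are each other's neighbour, these were 31 distinct pairs. With strand known for both genes, 22 of 26 pairs (84.6%) were head to head and 4 on the same strand. For 5 the strand of one gene was not in the table. Over all pairs of coding genes that shared a region, 844 of 1274 (66.2%) were head to head. That count took every reproducible region rather than each gene's strongest, and a pair was counted at each region it shared.

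Several neighbours of the strongest shared regions are genes of well known function. Mrps18b lies 71 bp from Ppp1r10, a nuclear targeting subunit of protein phosphatase 1, across the interval printed above. Mrpl18 overlapped Tcp1, a subunit of the cytosolic chaperonin. Mrpl41 (11.53) was paired with Pnpla7, a lysophospholipase, at a gap of 891 bp. Mrpl51, at 9.19, 12.1 and 10.3 in the 3 libraries, was 99 bp from Ncapd2, a condensin subunit. Mrps6 (9.99, 10.7 and 10.5) shared its start with Slc5a3, a myo-inositol transporter whose annotation overlaps it by 29138 bp.

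The next 7 by strength were Mrpl47 with Ndufb5 (10.14 ± 0.36, SD, n = 3), Mrps7 with Gga3 (10.08 ± 1.91), Mrpl30 with Mitd1 (9.90 ± 2.38), Mrpl57 with Ska3 (8.96 ± 2.07), Mrpl54 with Apba3 (8.57 ± 1.01), Mrps16 with Cfap70 (8.001 ± 0.763) and Mrpl44 with Wdfy1 (7.75 ± 3.79). Mrpl47 and Ndufb5, a complex I subunit gene, start 301 bp apart. The large spread of Mrpl44 is that of library 3 described above.

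In some pairs both genes serve mitochondrial gene expression or the respiratory chain. Mrpl46 and Mrps11, a large and a small subunit gene 41 bp apart, shared a single region at 7.25, 5.40 and 7.13 in libraries 1, 2 and 3, so the 62 members had 61 distinct strongest regions. Mrps12 started 135 bp from Sars2, the mitochondrial seryl-tRNA synthetase gene. Mrpl43 overlapped Twnk, the helicase of mitochondrial DNA, by 780 bp (7.63, 7.69 and 5.98). Mrps27 lay 88 bp from Ptcd2, a gene of mitochondrial RNA processing (6.04, 5.82 and 5.31). The weakest member, Mrpl49, was 191 bp from Fau, which encodes a cytosolic ribosomal protein. These pairs were picked after the shared regions were listed. For none of the pairs can the peak lists say which gene a region belongs to.

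Close neighbours were frequent in the annotation itself. An end of another coding gene lay within 1 kb for 44 of the 78 members (56.4%) and for 24.8% of all coding genes. Among the members with strand known, 27 of 69 (39.1%) had a head to head neighbour, against 10.3%. Over all coding genes, those with a close neighbour were occupied in 70.9% of cases and those without in 36.8%. Among the members the shares were nearly equal, at 35 of 44 (79.5%) with a close neighbour and 27 of 34 (79.4%) without. Head to head neighbours gave another order. Members with one were occupied in 24 of 27 cases (88.9%) and those without in 32 of 42 (76.2%), against 86.2% and 41.3% of all coding genes. Large subunit members were occupied in 26 of 30 cases with a close neighbour and 15 of 19 without, and small subunit members in 9 of 14 and 12 of 15.

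**Figure D3:**
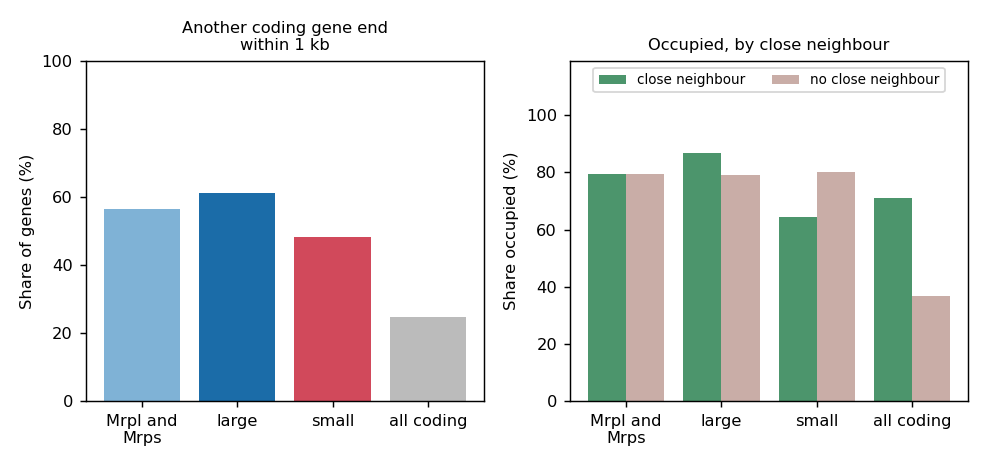
Left, share of genes (%) with an end of another coding gene within 1 kb; right, share occupied (%) among genes with and without such a neighbour. The members stand at 56.4% on the left and at 79.5% and 79.4% on the right, while all coding genes stand at 24.8% and at 70.9% and 36.8%.

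Regions that members shared with another coding gene were not stronger than their other regions by fold enrichment. The 32 shared regions had medians of 7.31, 7.28 and 7.13 in libraries 1, 2 and 3 (mean 7.24 ± 0.10, SD, n = 3). The 30 at no other coding end, called unshared here, had 7.74, 8.82 and 7.73 (8.10 ± 0.63). Some of the 30 also lay at a noncoding gene's end, namely those of Mrps28 (13.54), Mrpl55 (13.54), Mrps26 (13.16), Mrpl58 (8.07) and Mrps21 (6.51). Among all occupied coding genes the order was the opposite in each library, with 7.80, 8.05 and 7.73 where shared and 7.19, 7.48 and 6.95 where not. By pileup over background the members did not keep their order. Shared regions were at 19.2, 21.3 and 17.99, and unshared at 17.3, 20.6 and 17.99.

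**Figure D4:**
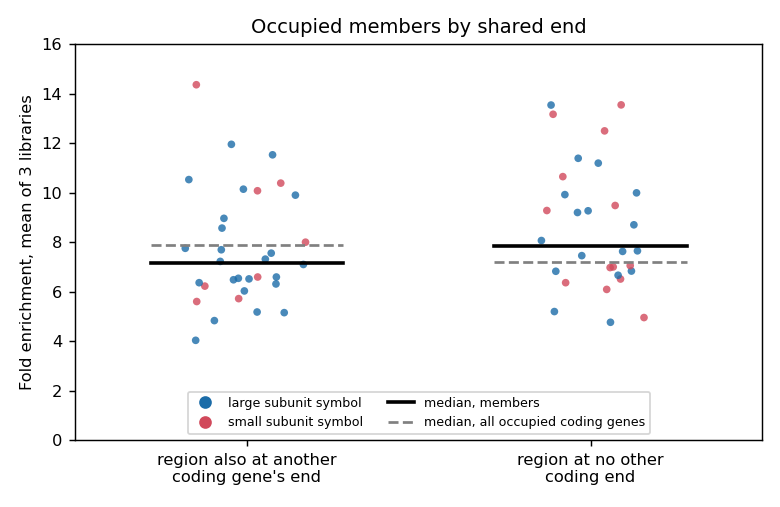
Fold enrichment (mean of 3 libraries, linear vertical axis) of each occupied member, 1 point a gene, split by whether its strongest region also lies within 1 kb of another coding gene's end; horizontal scatter has no meaning. Solid lines are the medians of the members, 7.16 where shared and 7.86 where not, and dashed lines those of all occupied coding genes, 7.87 and 7.196.

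Of the 16 members that were not occupied, 5 had no peak at either end. Mrpl24 and Mrpl4 are large subunit genes of bacterial ancestry, Mrps10 is a small subunit gene of bacterial ancestry, and Mrps22 and Mrps25 are small subunit genes particular to mitochondria. The nearest reproducible region lay 6457 bp from Mrpl24, 12882 bp from Mrps10, 24726 bp from Mrps22 and 76899 bp from Mrps25. At Mrpl4 it lay inside the gene, 1185 bp from an end, at 4.33, 5.21 and 3.999, which makes Mrpl4 the member next outside the limit of 1 kb. The member next inside it was Mrpl18 at 908 bp, by the edge of its joined region. The library 1 peak of that region was not itself within 1 kb of an end.

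The other 11 had peaks that were not joined across the libraries. Library 2 had a peak at each of the 11, library 3 at 6 and library 1, the one of lowest background coverage (1.07 fragments per base, against 1.41 and 1.95), at 3. These peaks were low, between 3.82 and 5.85. Mrpl16, Mrpl3 and Mrps34 had a peak in library 2 alone, at 3.82, 5.85 and 4.402. Mrps2, Mrpl19, Mrps18c, Mrps23 and Mrps30 had peaks in libraries 2 and 3, and Mrpl22 and Mrpl28 in libraries 1 and 2. Mrpl21 had a peak in each library (4.59, 4.86 and 4.96), but that of library 3 lay at the other end of the gene.

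For 3 of these genes the RefSeq start site lies inside the annotated span, and there a reproducible region covered it. It was at 8.97, 6.60 and 7.21 in the 3 libraries at Mrps2, 2115 bp from the outer end. At Mrpl22 it was at 4.95, 5.54 and 7.09, 1621 bp from the outer end, and at Mrps23 at 4.85, 7.38 and 8.85, 10282 bp from it. Counting an outer end or such a start, 65 of 78 members (83.3%) were covered, against 47.8% of all coding genes. Mrps30, a large subunit protein despite its symbol, had peaks in libraries 2 and 3 (5.82 and 4.75) and its nearest reproducible region was 1021496 bp away. Mrps18a, the other such gene, was occupied at 4.84, 6.98 and 6.47.

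Regions with a summit away from gene ends were also assigned to members. Distal regions, whose summit is over 1 kb from every gene end and nearest to the member within 100 kb, numbered 29 over 15 of the 78 members, or 0.37 a gene, against 0.54 for all coding genes. Of the 29, 3 covered a start site of their own gene in the promoter table, at Mrps23, Mrpl22 and Mrpl36. That of Mrpl36 is also the region by which it counts as occupied, since its edge but not its summit is within 1 kb of the end. Without them 26 regions of 13 members were left. Mrps23 had 8 of the 29, the region over its start site among them, at fold enrichments of 4.33 to 8.01. Mrps18a had 5. The one 36919 bp from the gene (chr17:46073539-46074495) had 13.4, 13.5 and 13.4, and the one 6297 bp from it had 6.90, 7.85 and 7.18. Both exceeded the region at the start of Mrps18a in each library. Mrpl14 had 3. The nearest gene end is only a position, and no link between these regions and the genes was measured.

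In promoter letters, matches to ETS factors, NRF1 and YY1 were more frequent in members than in all genes, and those to other factors searched were not uniformly so. The NRF1 and YY1 motifs were shortened after their values were seen, so their shares only describe these data. Windows of 300 bases (250 before and 50 after the start) were searched on both strands in 69 members and 17492 genes. The ETS motif CCGGAAG was in 24 members (34.8%), against 12.1% of all promoters and 20.8% of those whose start lay inside a reproducible region. The NRF1 motif GCGCANGCG, named for a regulator of nuclear genes of mitochondria, was in 16 (23.2%), against 9.03% and 16.5%. The YY1 motif AAGATGGCG was in 8 (11.6%), against 2.001% and 3.44%. These were Mrpl35, Mrpl36, Mrpl37, Mrpl42, Mrps11, Mrps18a, Mrps24 and Mrps27. Each of the 8 starts lay inside a reproducible region, as did 58 of all 69 member starts (84.1%).

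Over all members the motif of Bcl11a itself, in its exact and its wider form, was not more frequent than in all promoters. TGACCA was in 7 of 69 (10.1%), against 12.6% of all promoters. The wider form TGNCCA, which includes every TGACCA, was in 44.9% of members, against 45.8% of all promoters. Among covered starts TGNCCA was in 30 of 58 members (51.7%), against 42.7% of all genes, and among starts not covered in 1 of 11 (9.09%), against 48.1%. TGACCA was in 7 of 58 covered members (12.1%, against 11.3%) and in 0 of the 11 not covered, against 13.6% of all genes. The members with TGACCA were Mrpl22, Mrpl34, Mrpl41, Mrps15, Mrps18a, Mrps2 and Mrps23. Among them Mrps15 was one of the weakest members and Mrpl41 the one of highest pileup. Each of the 7 starts lay inside a reproducible region, as did 58 of all 69 member starts (84.1%).

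The other motifs were near the share of all promoters, but among covered starts they were less frequent in members. The SP and KLF motif GGGCGG was in 49.3% of members (47.1% of all promoters) and in 55.2% of covered members against 72.4% of covered genes. CCAAT was in 39.1% (38.9%), and in 36.2% against 39.9% of covered starts. The palindromes CACGTG of Myc and USF and TGACGTCA were in 7.25% (7.94%) and 2.899% (2.34%). Among covered starts they were in 3 and 1 of the 58 members (5.17% and 1.72%), against 10.8% and 3.72%. The ZNF143 family motif ACTACAATT was in 0 of 69 members and 0.549% of all promoters. Base composition differed between these sets of promoters, and its part was not tested. The median GC content was 58.3% in members and 56.7% in all promoters. Among covered starts it was 59.2% in members and 63% in all genes. ETS matches were in 4 of the 11 members whose start was not covered (36.4%; Mrps22, Mrpl3, Mrpl21 and Mrps18c) and in 20 of the 58 whose start was (34.5%). Over all genes the ETS shares were 5.58% where the start was not covered and 20.8% where it was. For NRF1 the counts were 0 of 11 and 16 of 58, against 3.45% and 16.5% of all genes.

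**Figure D5:**
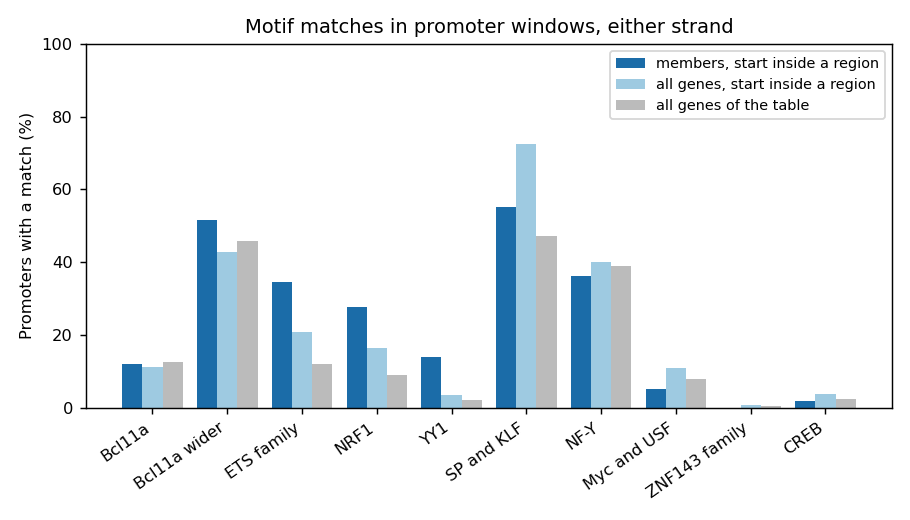
Share of promoter windows (%, vertical axis) with a letter match on either strand, by factor, for the 58 members whose start lies inside a reproducible region, all such genes and all genes of the promoter table. The members stand above both other sets for ETS, NRF1 and YY1 (34.5%, 27.6% and 13.8%) and below covered genes for SP and KLF (55.2% against 72.4%). The motifs of NRF1, YY1 and ZNF143 were shortened after their values were seen.

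Other genes of mitochondrial translation were described from lists of textbook members, beside the 45.2% of all protein-coding genes that were occupied. All 5 mitochondrial ribosomal proteins with other symbols were occupied (Aurkaip1, Dap3, Ptcd3, Chchd1 and Gadd45gip1), at means of 5.06 to 7.75. Aurkaip1 (7.75) and Dap3 (6.88), a GTP-binding small subunit protein, were the strongest. Of 15 genes of translation factors and related proteins 10 were occupied, and Mtrf1 had no peak. By reproducible region the release factor gene Mtrf1l (13.4, 15.8 and 11.2) and Lrpprc (8.98, 10.3 and 13.6) led. Taco1 had higher peaks at an end in libraries 1 and 2 (19.9 and 16.8), outside its reproducible region. Of 23 assembly and rRNA modification genes 16 were occupied. They were led by the rRNA methyltransferase gene Tfb1m (13.0, 13.0 and 16.9) and Noa1 (11.4, 13.6 and 14.8), a GTPase of small subunit assembly. Fastkd2 and Mterf4 had no peak.

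Genes that charge mitochondrial tRNAs were occupied in 16 of 20 cases (80%, against 45.2% of all coding genes), with Tars2 the one without a peak. Lars2, the leucyl-tRNA synthetase gene, stood at 38.7, 40.6 and 36.4, above each of the 78 members in every library, and Fars2 at 15.7, 17.1 and 14.8. The mean of Lars2 (38.6) was near the highest of any occupied coding gene (42.9). No filter for regions of artefactual signal was applied here. Of 10 genes of mitochondrial transcription and DNA upkeep 9 were occupied, led by Tfb2m (13.1, 15.4 and 15.96) and Polg2 (8.03, 8.32 and 8.84). Cytosolic ribosomal protein genes were occupied in 70 of 84 cases (83.3%) and the Nduf genes of complex I in 36 of 49 (73.5%), with the members at 79.5%. A region shared with another coding gene was found for 18 of the 70 cytosolic genes (25.7%) and 20 of the 36 Nduf genes (55.6%). The members stood at 51.6% and all occupied coding genes at 29.4%.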

How the data were processed

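Alignment used Bowtie2 and the build mm10, with SAMtools and then MACS2 for peak calling, per the submitters' processing notes. Their parameters, and any removal of duplicates, are not given in the sources used here. Each library has its own deposited list. The 3 lists give each peak's fold enrichment (a ratio), −log10 p and −log10 q (threshold 0.05), and the deposited score column was not used. From the deposited fold and −log10 p, the summit pileup was solved as a whole number of fragments (100% whole within 0.05). Depth in reads is unknown.

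Peaks on chromosomes 1 to 19, X and Y were joined at an overlap of at least 1 bp. A region's value in a library is that of its highest peak there, and a gene's is that of the region with the highest mean. Genes come from a RefSeq table of GRCm38.p6, which gives neither exons nor UTRs, so regions were not classed by them. Start sites, strands and sequences come from RefSeq promoters of the same build, and 69 of 78 members matched. Of several starts of a gene, one inside a region was taken first, in members and all genes alike. Motifs were searched as short cores, and those of NRF1, YY1 and ZNF143 were shortened after their values were seen. Joining and pileups were tested on simulated data with Python 3.11.15.

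Members and lists were chosen with earlier results of these data known. Named genes are the 10 strongest and 5 weakest members, those not occupied, the 12 strongest that share a region, those with regions at both ends, the 3 most variable, those next to the 1 kb limit, Mrps18a, Mrps30, and in each related list the 2 strongest and those with no peak. Other genes were named after their values were seen. Alternatives left out each library, required 2 libraries, stricter peaks or overlap, moved the window or changed the subunit or the measure.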

Additional observations from a re-analysis of the deposited data

How the results depend on the processing

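Members stayed above the share of all coding genes under each alternative run, from 30.8% against 20.6% to 89.7% against 51.6%. Keeping only the 10000 peaks of highest −log10 q a library left 24 members occupied, 14 large and 10 small subunit, with 11 shared regions, so the small subunit's share (34.5%) was then above the large subunit's (28.6%). Leaving out a library gave 62 to 67 occupied members, 41 to 43 large subunit, 21 to 25 small subunit, and 32 to 35 with shared regions. The medians then ranged from 7.32 to 7.53 in the large and 7.19 to 8.05 in the small subunit. Stricter peaks raised the medians, to 7.87 (large) and 8.94 (small) at −log10 q of at least 5, and to 9.71 and 10.8 for the 10000 best peaks, since weak members drop out. Under 50% reciprocal overlap the large subunit median was 7.81. Summit pileup over background, another scale, gave 19.3 and 17.5, the opposite order to fold enrichment. Leaving out Mrps36 and counting start sites of the promoter table were added after the data were seen, and they gave 61 and 65 occupied members. No paired analysis was possible because the replicate numbers link these libraries to no second group of samples. Weak members limit the precision, since 8 to 12 fragments was the lowest summit pileup in the 3 libraries.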

Other observations

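The RefSeq table also holds 6 pseudogenes of the family (Mrpl23-ps1, Mrpl48-ps, Mrpl27-ps and 3 of Mrps36). None of the 6 had a peak of any library within 1 kb of either end, while 73 of the 78 genes had one. Of all 9944 annotated pseudogenes, 94.1% had none. For Mrps36 the gene itself was the strongest but 4 of the members, at 12.49 ± 1.18 (SD, n = 3).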
